A study of Mus musculus with 2 samples.

Results

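Levels of 36 genes of the unfolded protein response and the integrated stress response were followed in RNA-seq libraries of polyadenylated RNA from mouse macrophages. The genes were chosen by symbol from a fixed list of pathway members, all 36 were found, and they are 36 of the 55536 annotated genes in the tables. The cells were primary bone marrow-derived macrophages of the mouse strain C57BL/6J. They had received 100 ng/ml of a bacterial ligand for 30 min, and 1 µg of RNA went into each library. The labels disagree on the ligand, which the free-text description names lipid A and the source and treatment fields name lipoprotein A. Both libraries belong to the same group, biological replicates 1 and 2, which are separate biosamples that share a donor record, with sex and age not collected. No untreated samples were analysed here, so no level can be read as induced or repressed, and every difference below is between 2 libraries of the same treatment.

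The unfolded protein response watches the folding capacity of the endoplasmic reticulum (ER) through the membrane sensors IRE1α, ATF6 and PERK. IRE1α removes a short intron from the Xbp1 mRNA in the cytosol, ATF6 is released by proteolysis, and both routes raise transcription of chaperones and of the machinery that degrades misfolded proteins. PERK phosphorylates the translation factor eIF2α, as do the kinases HRI, PKR and GCN2 in the wider integrated stress response, and this lowers general translation while the factors ATF4 and CHOP are made. In macrophages, IRE1α and XBP1 are known to be engaged by Toll-like receptors and to shape cytokine output.

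Over annotated genes, the depth was 37784941 expected counts (estimated reads) in replicate 1 and 51904470 in replicate 2, with 10.9% and 5.05% of them on ribosomal RNA. All 8 macrophage markers reached 10 TPM in both libraries, led by Lyz2 and Cd68, where TPM is an abundance per transcript length, relative to all transcripts of the library. Fibroblast markers were below 1 TPM in both libraries for all 6 genes, with Col3a1 and Col1a2 the highest. Of 12 B and plasma cell markers, 4 reached 1 TPM in both, the highest being Prdm1 and Ighm, and Mzb1 had 0 counts in both. Neutrophil markers summed to 357 TPM in replicate 1 and 59.1 TPM in replicate 2, most of it from S100a9 and S100a8, with 4 of 10 at 1 TPM or more in both. The 6 proliferation markers, led by Pcna and Cdk1, summed to 491 TPM in replicate 1 and 294 TPM in replicate 2. All 6 passed the test described below as higher in replicate 1, with a background of 31.3% of tested genes. Mki67 did so by a small log2 ratio of replicate 1 over replicate 2, 0.14, and 71.8% of tested genes lay further apart. In bulk RNA, a different number of cells of a type and a different amount of RNA per cell cannot be told apart.

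The stress response genes were well represented. Of the 36 members, 33 reached 1 TPM in both libraries, 30 reached 10 TPM and 8 reached 100 TPM, while 45.3% of all 22028 protein-coding genes reached 1 TPM and 28.4% reached 10 TPM. The median member was at 60.1 TPM in replicate 1 and 56.8 TPM in replicate 2, a mean of 58.5 ± 2.35 TPM (SD, n = 2 libraries), and the median of the 9983 protein-coding genes at 1 TPM or more in both libraries was 17.3 ± 1.21 TPM. The order of mean levels began with Calr, Ppp1r15a, Pdia3, Canx and P4hb and ended with Asns, Trib3, Chac1 and Derl3. Ranges of the 2 libraries overlapped for 21 of the 35 neighbouring pairs in this order. Among them were Ppp1r15a and Pdia3, and Pdia3 and Canx, whose order turned between the libraries. Overlap of ranges sets aside that both genes of a pair were measured in the same libraries. Some overlapping pairs kept their order in both, such as Edem3 above Ern1. For 14 pairs the ranges did not overlap, among them P4hb above Pdia6. Calr stood above Ppp1r15a by a narrow gap, with a lowest level of 834 TPM for Calr and a highest level of 814 TPM for Ppp1r15a. On transcripts annotated as protein coding only, a setting added after seeing the data, Calr had 900.2 TPM in replicate 1 and 603 TPM in replicate 2, so that its range overlapped that of Ppp1r15a and the order turned in replicate 2. The folding enzymes and lectin chaperones Calr, Canx, Pdia3, Pdia4, Pdia6 and P4hb made up 61.7% of the summed TPM of the 36 members in replicate 1 and 46.9% in replicate 2, and Ppp1r15a alone made up 6.93% in replicate 1 and 19.9% in replicate 2.

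**Figure D1:**
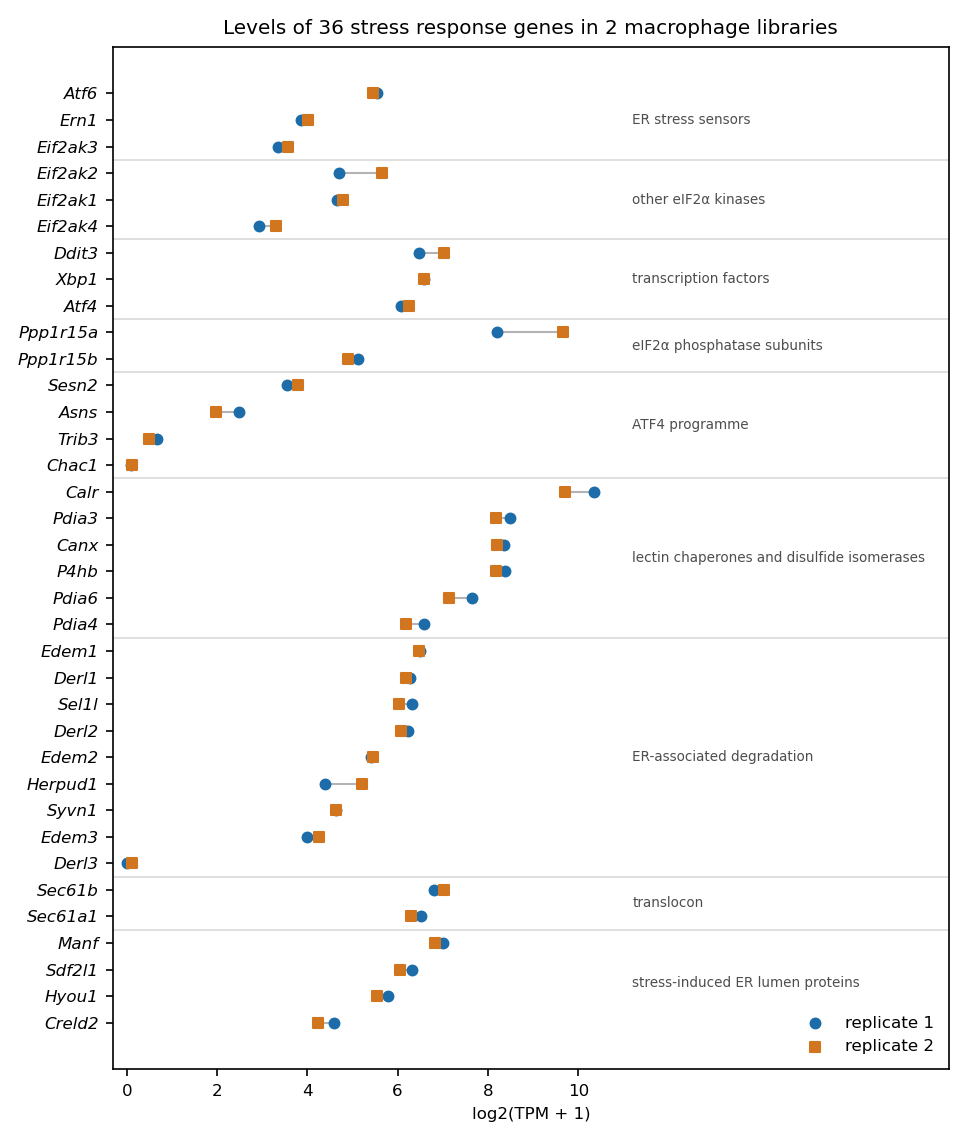
Levels of the 36 members as log2(TPM + 1) on the horizontal axis, with replicate 1 as circles and replicate 2 as squares, grouped by role and ordered by mean level within a role. Calr and Ppp1r15a lie farthest to the right, Trib3, Chac1 and Derl3 lie near 0, and the widest gap between libraries is that of Ppp1r15a.

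Differences between the libraries were tested gene by gene with an exact two-sided binomial test on counts scaled by TMM (trimmed mean of M-values), adjusted by Benjamini-Hochberg over 12266 tested genes at 0.05. Its p-values weigh counting error between these 2 libraries only and say nothing of conditions. Of the 34 members tested, 29 (85.3%) differed, where the background over all tested genes was 63.5%. Power rises with counts, and 68.5% of protein-coding genes at 1 TPM or more in both libraries differed. Among the 34, 19 (55.9%) were higher in replicate 1, with a background of 31.3%, and 10 (29.4%) were lower in replicate 1, with a background of 32.2%. Scaled to total counts, the split was 15 higher and 12 lower in replicate 1, with backgrounds of 20.3% and 42.8%. With a second deposited quantification, made per transcript and summed per gene, it was 21 higher and 7 lower, with backgrounds of 32.4% and 32.1%. The median member log2 ratio of replicate 1 over replicate 2 was 0.16, against −0.0022 over all tested genes. Under total-count scaling these medians were 0.045 and −0.12. Beyond 2-fold, 1 member (2.94%), Ppp1r15a, differed, with a background of 7.98%. It was lower in replicate 1, where the background was 4.93%, and 0 members were more than 2-fold higher in replicate 1, with a background of 3.05%.

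**Figure D2:**
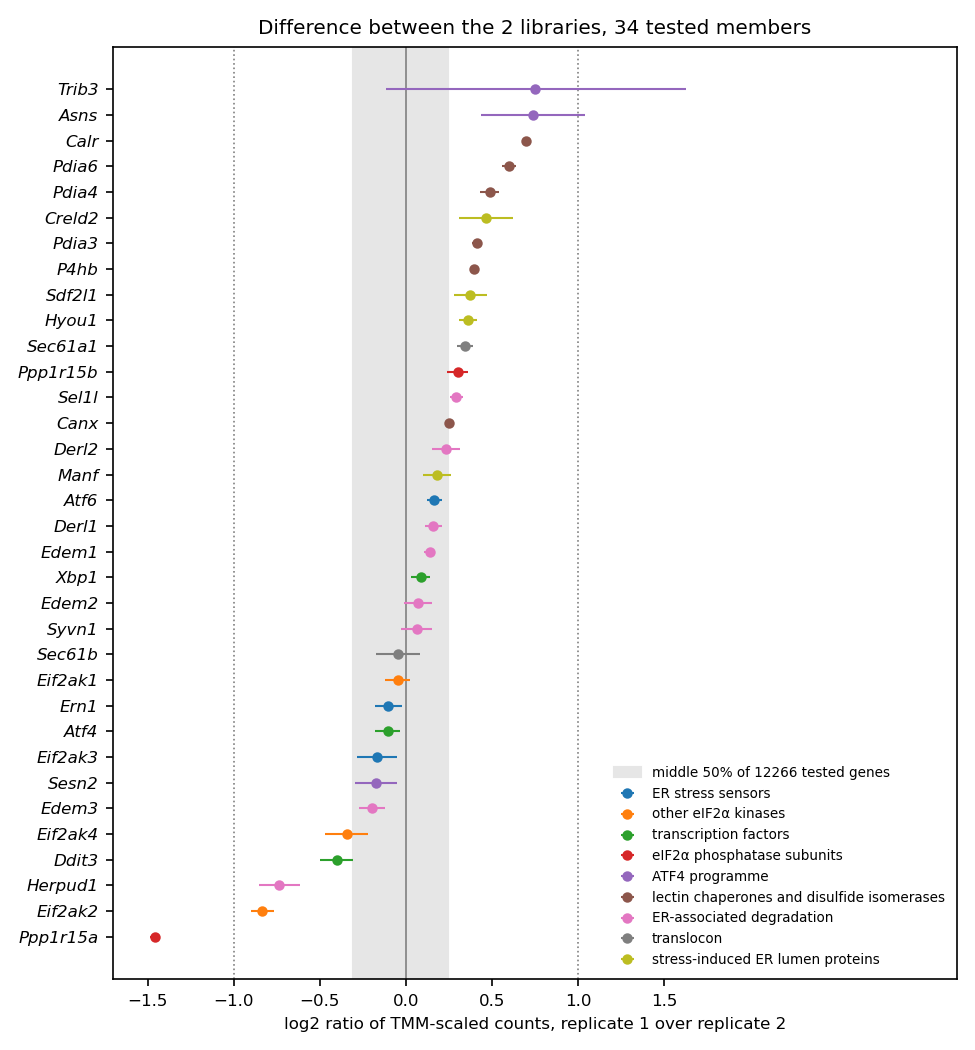
Log2 ratio of TMM-scaled counts, replicate 1 over replicate 2, for the 34 tested members, with exact 95% intervals that cover counting error only and colours for roles. The grey band spans the middle 50% of all tested genes, from −0.31 to 0.24, and the dotted lines mark 2-fold. Folding genes of the ER lumen, counted with the membrane-bound Canx, lie to the right, with Manf inside the band. Trib3 and Asns of the ATF4 programme lie farthest to the right, while Ppp1r15a, Eif2ak2, Herpud1 and Ddit3 lie farthest to the left.

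The 3 ER stress sensors were expressed at unequal levels. Atf6 (chromosome 1, 170704674 to 170867771, assembly mm10), the membrane-bound transcription factor, had 45.6 TPM in replicate 1 and 42.9 TPM in replicate 2. Ern1 (chromosome 11, 106394650 to 106487852), which encodes IRE1α, had 13.5 TPM in replicate 1 and 15.2 TPM in replicate 2. Eif2ak3 (chromosome 6, 70844515 to 70905245), which encodes PERK, had 9.21 TPM in replicate 1 and 10.9 TPM in replicate 2. Atf6 thus exceeded Ern1 by 3.39-fold in replicate 1 and 2.83-fold in replicate 2, and it exceeded Eif2ak3 by 4.95-fold and 3.95-fold, with no overlap between the libraries' ranges. Between libraries all 3 passed the test by small ratios, where the background over all tested genes was 63.5%. For each of them, 66.9% to 79.1% of tested genes lay further apart. Atf6 was higher in replicate 1, with a log2 ratio of 0.16 (95% interval 0.12 to 0.21). Ern1 and Eif2ak3 were lower in replicate 1, with log2 ratios of −0.10 and −0.17. For Ern1 the second quantification gave −0.06 with an adjusted p of 0.151 in the exact binomial test.

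Among the other eIF2α kinases, Eif2ak2 set the libraries apart. Eif2ak2 (chromosome 17, 78852564 to 78882573) encodes PKR, the kinase activated by double-stranded RNA and a known interferon-inducible gene, and it had 24.9 TPM in replicate 1 and 49.3 TPM in replicate 2. It was clearly lower in replicate 1, with a log2 ratio of −0.84 (95% interval −0.90 to −0.77), and 11.6% of tested genes lay further apart. Eif2ak1, the heme-regulated kinase HRI, had 24.3 TPM in replicate 1 and 26.6 TPM in replicate 2. That difference did not pass the test under TMM scaling, at a log2 ratio of −0.05 and adjusted p of 0.265, but did under total-count scaling, at −0.17. Eif2ak4, the amino acid sensor GCN2, had 6.57 TPM in replicate 1 and 8.94 TPM in replicate 2, and was lower in replicate 1 with a log2 ratio of −0.34. PKR transcripts exceeded those of PERK by 2.70-fold in replicate 1 and 4.53-fold in replicate 2. Relative to HRI transcripts they stood at 1.02-fold in replicate 1 and 1.85-fold in replicate 2.

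Transcripts of the 3 effector transcription factors were all above 60 TPM. Xbp1 (chromosome 11, 5520659 to 5525893) had 94.7 TPM in replicate 1 and 95.4 TPM in replicate 2. The libraries were close to equal, and the direction depended on the scale: the log2 ratio was 0.09 on TMM-scaled counts (adjusted p = 0.0054, exact binomial test), −0.032 on total counts (adjusted p = 0.333, same test) and −0.011 on log2(TPM + 1). Atf4 (chromosome 15, 80255184 to 80257541), whose protein is made mainly when eIF2α is phosphorylated, had 65.9 TPM in replicate 1 and 75.6 TPM in replicate 2. It was slightly lower in replicate 1, with a log2 ratio of −0.11, and the second quantification gave −0.05 with an adjusted p of 0.276 in the exact binomial test. Ddit3 (chromosome 10, 127290774 to 127296288), which encodes CHOP, had 87.8 TPM in replicate 1 and 128 TPM in replicate 2. Here replicate 1 was lower, with a log2 ratio of −0.40 (95% interval −0.50 to −0.31) and an adjusted p of 3.12e-16 in the exact binomial test. Of all tested genes, 34.3% lay further apart. Ddit3 transcripts exceeded those of Atf4 by 1.33-fold in replicate 1 and 1.70-fold in replicate 2. A second annotated Ddit3 identifier had 0 counts in both libraries.

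The Xbp1 stretch below is shown because IRE1α cuts it, and because it decides what the tables can say about splicing. It lies in exon 4 of transcript Xbp1-201, chr11:5524239-5524344 on the plus strand of the mm10 reference, and the capitals mark the 26 bases between the stem-loop cut sites, chr11:5524279-5524304.
Xbp1: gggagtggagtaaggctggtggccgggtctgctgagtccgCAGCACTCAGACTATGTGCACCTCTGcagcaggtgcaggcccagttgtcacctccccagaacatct
Of the 4 annotated Xbp1 transcripts, 3 hold these 26 bases, and none holds the flanks joined without them. Xbp1-201, which holds them, took 98.7% of the gene's TPM in replicate 1 and 97.9% in replicate 2. Reads of the spliced mRNA had no entry of their own, so these values give total Xbp1 transcript and not the spliced share.

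The 2 regulatory subunits of the eIF2α phosphatase, which restores translation, stood far apart. Ppp1r15a (chromosome 7, 45522916 to 45526268), the inducible subunit GADD34, had 14493 counts and 293 TPM in replicate 1, and 59307 counts and 814 TPM in replicate 2. Replicate 1 was much lower, 2.75-fold on scaled counts, with a log2 ratio of −1.46 (95% interval −1.48 to −1.43), and 3.33% of tested genes lay further apart. Ppp1r15b, the constitutive subunit CReP, had 33.9 TPM in replicate 1 and 28.9 TPM in replicate 2. It went the other way, higher in replicate 1 with a log2 ratio of 0.30 (95% interval 0.24 to 0.36). Within a library, Ppp1r15a exceeded Ppp1r15b by 8.64-fold in replicate 1 and 28.2-fold in replicate 2. The second quantification gave 9.23-fold and 31.5-fold for the same ratio. On transcripts annotated as protein coding only, Ppp1r15b had 18.4 TPM in replicate 1 and 16.0 TPM in replicate 2. Ppp1r15a was unchanged there, so the ratio was larger in both libraries under that setting, which was added after seeing the data.

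The 4 members grouped as the ATF4 programme ranged from 0.07 to 11.7 TPM in mean level, below Atf4 and Ddit3. Other known targets were far higher, among them Ppp1r15a above and Atf3 and Slc3a2 further on. Sesn2, the stress-responsive regulator of mTORC1 signalling, had 10.7 TPM in replicate 1 and 12.8 TPM in replicate 2, and was lower in replicate 1 with a log2 ratio of −0.17. Asns, asparagine synthetase, had 4.56 TPM in replicate 1 and 2.92 TPM in replicate 2, from 198 and 177 counts. It was higher in replicate 1, with a log2 ratio of 0.74 (95% interval 0.44 to 1.04) that few counts leave wide. Trib3, the pseudokinase that binds ATF4 and CHOP, had 26 counts and 0.59 TPM in replicate 1, and 23 counts and 0.40 TPM in replicate 2. Its log2 ratio of 0.75 did not pass the exact binomial test (95% interval −0.11 to 1.63, adjusted p = 0.116). Chac1, which degrades glutathione, was near the detection floor with 2 counts in replicate 1 and 4 counts in replicate 2, and was not tested. Atf4 transcripts exceeded those of Trib3 by 112-fold in replicate 1 and 189-fold in replicate 2, and by 65.1-fold and 111-fold in the deposited posterior mean TPM, which put Trib3 at a mean of 0.82 TPM.

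Calr had the highest mean level of the 36 members. All 10 lumenal folding members, counted here with the membrane-bound Canx, were higher in replicate 1, with a background of 31.3%. Calr alone stood above Ppp1r15a in mean level. Calr, calreticulin, the calcium-binding lectin chaperone, had 1298 TPM in replicate 1 and 834 TPM in replicate 2, on chromosome 8, 84841850 to 84846934. Replicate 1 was well above replicate 2, with a log2 ratio of 0.70 (95% interval 0.68 to 0.72). Its membrane-bound partner Canx, calnexin, had 326 TPM in replicate 1 and 294 TPM in replicate 2, a smaller log2 ratio of 0.25. Calr transcripts exceeded those of Canx by 3.98-fold in replicate 1 and 2.84-fold in replicate 2.

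The protein disulfide isomerases, which form and rearrange disulfide bonds, followed the same direction. P4hb, the founding isomerase, had 331 TPM in replicate 1 and 288 TPM in replicate 2. Pdia3, which works with the lectin chaperones on glycoproteins, had 361 TPM in replicate 1 and 287 TPM in replicate 2. Both were higher in replicate 1, with log2 ratios of 0.40 and 0.41. Pdia6 had 198 TPM in replicate 1 and 139 TPM in replicate 2, with a log2 ratio of 0.60. Pdia4, the lowest of the 4, had 94.4 TPM in replicate 1 and 71.5 TPM in replicate 2, with a log2 ratio of 0.49.

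The stress-induced lumenal proteins sat at lower levels. Manf, a secreted factor that binds the chaperone BiP, had 128 TPM in replicate 1 and 113 TPM in replicate 2. Sdf2l1, an ER protein that associates with chaperone complexes, had 78.1 TPM in replicate 1 and 65.3 TPM in replicate 2. Hyou1, an HSP70-related chaperone, had 54.4 TPM in replicate 1 and 45.8 TPM in replicate 2, and Creld2, a lumenal protein with EGF-like domains, had 23.0 TPM in replicate 1 and 17.9 TPM in replicate 2. All 4 passed the test as higher in replicate 1, with log2 ratios of 0.18, 0.37, 0.36 and 0.46 in that order. Under total-count scaling the Manf ratio was 0.07 with an adjusted p of 0.16 in the exact binomial test. Across the lumenal folding members, Canx included, 10 of 10 tested were thus higher in replicate 1, with a background of 31.3%. Their median log2 ratio was 0.40. Power rises with counts, and 3446 of 9975 tested protein-coding genes at 1 TPM or more in both libraries were higher in replicate 1. The neutrophil and proliferation markers were also higher in replicate 1, as given above, and their part in this difference was not tested.

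Promoter stretches are shown for the members whose RefSeq promoter held an ER stress element, the composite site bound by NF-Y with ATF6 or XBP1. Promoters ran from 250 bases before to 50 bases after the RefSeq start (assembly GRCm38.p6), and 30 of the 36 members were matched, the others being Atf6, Derl1, Hyou1, Manf, Ppp1r15b and Sec61a1. The element was searched on both strands as CCAAT, then 9 bases of any kind, then CCACG, and 6 of the 30 held it, against 0.119% of all 32851 promoters. Capitals mark the fixed letters of the element, as read on the gene's own strand, where a copy on the other strand reads CGTGG before ATTGG.
Calr, chr8:84846935-84847101, minus strand: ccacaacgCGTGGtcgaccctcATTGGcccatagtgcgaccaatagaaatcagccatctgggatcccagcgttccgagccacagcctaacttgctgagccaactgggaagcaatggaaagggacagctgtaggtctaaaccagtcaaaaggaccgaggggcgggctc
Canx, chr11:50325674-50325843, minus strand: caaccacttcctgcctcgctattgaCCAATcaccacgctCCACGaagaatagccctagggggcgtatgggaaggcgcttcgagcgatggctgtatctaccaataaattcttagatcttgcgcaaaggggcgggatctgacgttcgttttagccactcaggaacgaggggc
Pdia6, chr12:17266419-17266544, plus strand: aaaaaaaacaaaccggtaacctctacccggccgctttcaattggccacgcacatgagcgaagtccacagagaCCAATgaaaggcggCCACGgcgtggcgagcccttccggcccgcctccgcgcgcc
Creld2, chr15:88819476-88819645, plus strand: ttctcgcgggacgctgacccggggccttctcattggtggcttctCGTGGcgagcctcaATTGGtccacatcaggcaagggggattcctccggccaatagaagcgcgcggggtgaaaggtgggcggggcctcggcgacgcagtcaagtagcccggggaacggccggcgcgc
Syvn1, chr19:6046406-6046575, plus strand: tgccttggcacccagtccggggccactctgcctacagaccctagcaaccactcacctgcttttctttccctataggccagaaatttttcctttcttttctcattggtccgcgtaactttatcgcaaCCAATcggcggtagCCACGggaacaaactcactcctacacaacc
Derl3, chr10:75893228-75893397, plus strand: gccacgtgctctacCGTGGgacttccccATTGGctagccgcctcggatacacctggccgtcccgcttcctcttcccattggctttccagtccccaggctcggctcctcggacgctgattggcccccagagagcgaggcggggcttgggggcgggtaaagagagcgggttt
The shorter ER stress element II, searched on both strands as ATTGG, then 1 base of any kind, then CCACG, was in the Herpud1 promoter and in 0.0365% of all promoters. It was added to the search after the promoters were read, so the match in Herpud1 is description only.
Herpud1, chr8:94386259-94386428, plus strand: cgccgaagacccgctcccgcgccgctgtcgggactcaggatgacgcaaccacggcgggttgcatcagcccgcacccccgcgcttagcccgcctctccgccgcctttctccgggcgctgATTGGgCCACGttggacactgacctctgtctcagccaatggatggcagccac

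The genes that share the element did not share a level. Calr stood above 800 TPM in both libraries, Canx and Pdia6 above 100 TPM, Creld2 and Syvn1 at about 20 TPM, and Derl3 at 0 to 0.08 TPM. Between libraries Calr, Canx, Pdia6 and Creld2 were higher in replicate 1, and Syvn1 did not pass the test. The first base of the element lay between 162 bases before the start in Calr and 44 bases before it in Syvn1. Among the other pathway genes, 4 of 71 held it, namely Hspa5, Hsp90b1, Dnajc3 and Ero1b (Ero1lb in the M21 annotation). The UPRE letters TGACGTGG, bound by XBP1, were in 0 of 30 member promoters and 0.676% of all. Of the amino acid response element, TGATGCAAT was in 0 of 30 and 0.192% of all, and the core TTGCATCA, which overlaps its reverse complement, was in the promoters of Chac1 and Herpud1 and in 0.895% of all. CCACG alone, contained in both ER stress elements, was in 22 of 30 and in 32.8% of all. The core TTGCATCA was likewise added after the promoters were read. A match is a run of letters and not a bound site.

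**Figure D3:**
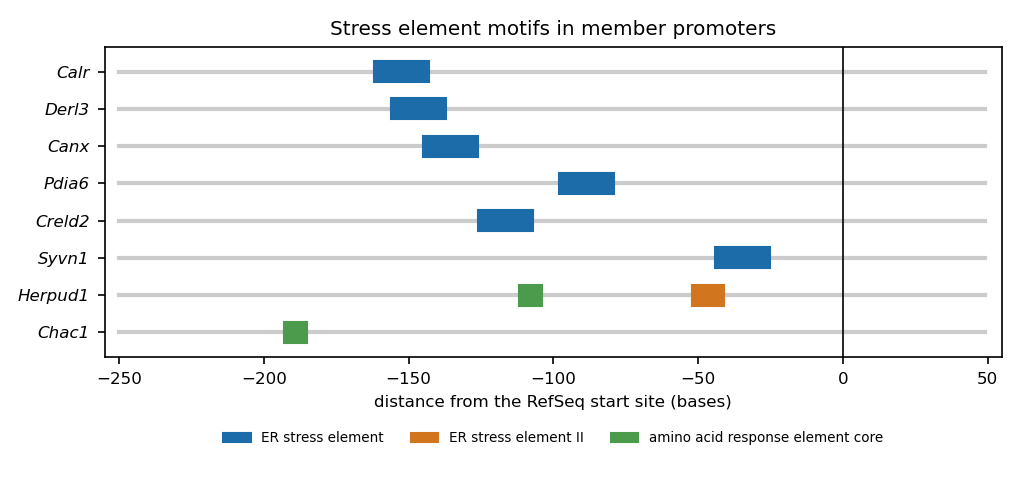
Positions of the ER stress element, the ER stress element II and the amino acid response element core in the promoters of 8 members, with the distance from the RefSeq start site in bases on the horizontal axis and each searched promoter as a grey line. Copies of the ER stress element begin between 162 and 44 bases before the start, and Herpud1 holds copies of both other motifs.

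ER-associated degradation, which extracts misfolded proteins for the proteasome, was present throughout except for Derl3. The ubiquitin ligase Syvn1, also called HRD1, had 23.7 TPM in each replicate, and its adaptor Sel1l had 78.6 TPM in replicate 1 and 64.3 TPM in replicate 2. Sel1l was higher in replicate 1, with a log2 ratio of 0.29, and Syvn1 did not pass the test, at 0.06 and an adjusted p of 0.229 in the exact binomial test. With the second quantification Syvn1 gave 0.11 and an adjusted p of 0.0193 in the exact binomial test. The rhomboid-like channel proteins Derl1 and Derl2 had 75.9 and 74.5 TPM in replicate 1, against 71.9 and 66.6 TPM in replicate 2. Both were higher in replicate 1, with log2 ratios of 0.16 and 0.23, and under total-count scaling Derl1 no longer passed, at 0.04. The related Derl3 had 0 counts in replicate 1, which allows up to 0.0794 CPM, and 3 counts in replicate 2.

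The mannosidase-like EDEM proteins, which mark glycoproteins for disposal, spanned a wide range. Edem1 had 88.7 TPM in replicate 1 and 87.4 TPM in replicate 2. Edem2 had 41.6 TPM in replicate 1 and 42.8 TPM in replicate 2, and Edem3 had 15.0 TPM in replicate 1 and 18.1 TPM in replicate 2. Edem1 exceeded Edem3 by 5.93-fold in replicate 1 and 4.82-fold in replicate 2. Edem1 passed the test as higher in replicate 1, at a log2 ratio of 0.14, and Edem3 as lower, at −0.20. Edem2, at 0.07, did not pass, with an adjusted p of 0.13 in the exact binomial test, and its TPM points the other way. With the second quantification Edem2 was at 0.13 and passed, and under total-count scaling Edem1 was at 0.02 and did not.

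Herpud1 had the largest difference between libraries among the tested degradation members, and with Edem3 it was lower in replicate 1. It encodes an ER membrane protein of the HRD1 complex and lies on chromosome 8, 94386438 to 94395377. It had 800 counts and 19.8 TPM in replicate 1, and 1985 counts and 35.8 TPM in replicate 2. Replicate 1 was lower by 1.67-fold on scaled counts, with a log2 ratio of −0.74 (95% interval −0.86 to −0.62), and 14.7% of tested genes lay further apart. Relative to Syvn1, the ligase of the same complex, Herpud1 transcripts stood at 0.838-fold in replicate 1 and 1.51-fold in replicate 2. Over the 8 tested degradation members, 4 (50%) were higher in replicate 1, 2 (25%) were lower and 2 did not pass. The backgrounds over all tested genes were 31.3% higher and 32.2% lower.

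The translocon, the channel through which new proteins enter the ER, was represented by a pair of subunits. Sec61a1, the pore-forming subunit, had 91.2 TPM in replicate 1 and 77.0 TPM in replicate 2. It was higher in replicate 1, with a log2 ratio of 0.34. Sec61b, the small β subunit, had 110 TPM in replicate 1 and 129 TPM in replicate 2, and did not pass the exact binomial test, at −0.04 and an adjusted p of 0.579. Under total-count scaling Sec61b was at −0.16 and passed as lower in replicate 1.

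Most members were made from a single dominant transcript. Across 165 annotated transcripts, 22 of 33 members at a mean of 1 TPM or more had a leading transcript with at least 90% of the gene's TPM in both libraries, and 21 did in the second quantification. Both counts include Creld2, Sdf2l1 and Sesn2, which have 1 annotated transcript each, so their share of 100% was fixed in advance. The leading transcript was protein coding in all 33. In 5 members, Calr, Derl2, Hyou1, Manf and Ppp1r15b, the transcript ranked next took at least 20% in both libraries. For Calr this was Calr-204, annotated as a retained intron, with 30.2% of TPM in replicate 1 and 27.1% in replicate 2, and with 37.6% and 35.3% in the second quantification. Calr-204 is short, and its share of the gene's counts was 13.3% in replicate 1 and 11.4% in replicate 2.

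Manf also had a retained-intron transcript, Manf-205, with 35.9% of TPM in replicate 1 and 38.4% in replicate 2, beside the coding Manf-201 with 52.9% in replicate 1 and 44.3% in replicate 2. Manf-205 is short as well, at 502 bases, and took 12.9% of the gene's counts in replicate 1 and 11.9% in replicate 2. By counts, Manf-201 took 54.6% in replicate 1 and 41.8% in replicate 2. The coding Manf-202 took 32.4% of counts in replicate 1 and 46.0% in replicate 2. Ppp1r15b-202, a processed transcript without an annotated coding sequence, took 45.8% in replicate 1 and 44.7% in replicate 2. The second quantification put it lower, at 26.3% in replicate 1 and 21.3% in replicate 2. Derl2 was divided mainly among coding transcripts, Derl2-202 with 37.8% in replicate 1 and 35.4% in replicate 2 and Derl2-207 with 31.5% in replicate 1 and 26.2% in replicate 2. By counts the longer coding Derl2-206 was the largest, with 42.8% in replicate 1 and 48.0% in replicate 2. Hyou1-201 and Hyou1-206 took 69.7% and 21.8% in replicate 1, and 67.3% and 20.4% in replicate 2. For Syvn1 the quantifications disagreed on the transcript: Syvn1-201 took 19.5% in replicate 1 and 32.4% in replicate 2, but 1.501% in replicate 2 and almost none in replicate 1 in the second quantification. Some members overlap a gene on the opposite strand, among them Ddit3 with Mars, Syvn1 with Mrpl49, Derl2 with Mis12, Eif2ak1 with Aimp2 and Manf with Dcaf1, and whether counting used strand is not given in the sources used here. Manf also overlaps Rbm15b on the same strand, where strand would not tell reads apart. Rbm15b had 6.81 TPM in replicate 1 and 6.69 TPM in replicate 2.

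**Figure D4:**
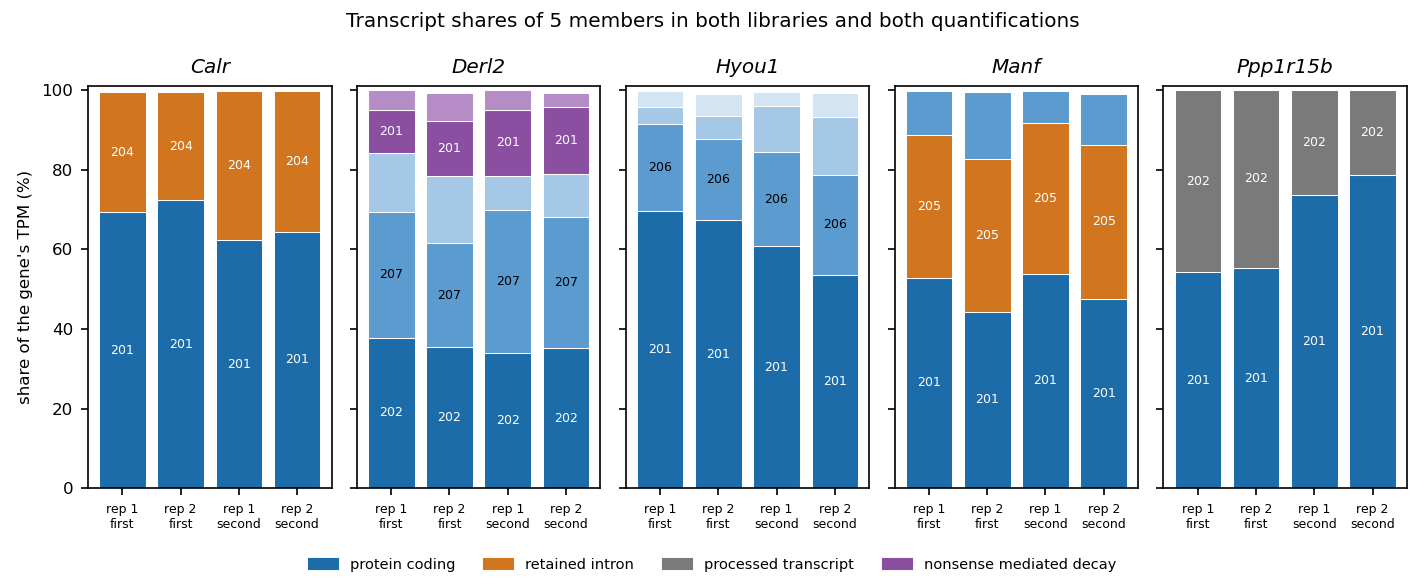
Share of the gene's TPM, in percent, taken by each annotated transcript of Calr, Derl2, Hyou1, Manf and Ppp1r15b, with replicates 1 and 2 in the main quantification and then in the second, colours for transcript biotype and numbers for transcript names. Retained-intron transcripts take 27.1% to 37.6% of Calr, and the processed transcript of Ppp1r15b is smaller in the second quantification.

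Other genes of the pathway, 86 matched by symbol, placed the members in context. Of these, 77 reached 1 TPM in both libraries, and of 82 tested, 42 (51.2%) were higher and 19 (23.2%) lower in replicate 1, with the backgrounds of 31.3% and 32.2% given above for all lists that follow. Among 14 other ER chaperones and folding factors, 10 (71.4%) were higher and 1 (7.14%) lower in replicate 1. Hspa5, which encodes the chaperone BiP, had 776 TPM in replicate 1 and 595 TPM in replicate 2. By mean level it came next to Calr, at 0.597-fold of it in replicate 1 and 0.714-fold in replicate 2. In replicate 2, Ppp1r15a and Atf3 stood between Calr and Hspa5. Hsp90b1, the chaperone GRP94, had 460 TPM in replicate 1 and 371 TPM in replicate 2, and the prolyl isomerase Ppib had 350 TPM in replicate 1 and 264 TPM in replicate 2. These 3 were higher in replicate 1, with log2 ratios of 0.39, 0.39 and 0.52 in that order. The XBP1 target Dnajb9 had 32.9 TPM in replicate 1 and 35.2 TPM in replicate 2 and did not pass the exact binomial test, with an adjusted p of 0.843, but was at −0.13 and passed as lower in replicate 1 under total-count scaling. With the lumenal members, 20 of 24 tested folding genes were higher in replicate 1 and 1 was lower under TMM scaling. The split of this set under total-count scaling was not counted.

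The other integrated stress response and ATF4 targets ranged widely in level. Replicate 1 was higher for 6 (33.3%) of the 18 that could be tested and lower for 8 (44.4%), and the first share lay near its background of 31.3%. The transcription factor Atf3 had 508 TPM in replicate 1 and 636 TPM in replicate 2, and the cytokine Gdf15 had 237 TPM in replicate 1 and 298 TPM in replicate 2, both lower in replicate 1. Slc3a2, the heavy chain of amino acid transporters, had 422 TPM in replicate 1 and 373 TPM in replicate 2. Against these high levels, 5 of the 21, Slc7a5, Phgdh, Vldlr, Fgf21 and Stc2, were below 1 TPM in both libraries, as were Trib3 and Chac1 among the members. In posterior mean TPM, Slc7a5 and Phgdh were at means of 6.84 and 1.29 TPM. Nupr1, a stress-inducible chromatin protein, and the serine synthesis enzyme Psat1 were picked out after their values were seen. Nupr1 had 14.2 TPM in replicate 1 and 42.2 TPM in replicate 2, a log2 ratio of −1.65, and Psat1 had 7.51 TPM in replicate 1 and 2.76 TPM in replicate 2, a log2 ratio of 1.55.

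The remaining lists held few genes below detection. Of 9 subunits of eIF2 and its exchange factor and related genes, 3 (33.3%) were higher and 2 (22.2%) lower in replicate 1, and the most abundant were Eif2s3x, Eif2b2 and Eif2s2. Of 16 other degradation genes, 11 (68.8%) were higher and 2 (12.5%) lower in replicate 1, led in level by Vcp, Os9 and Aup1. Vcp, the segregase that pulls proteins from the ER membrane, had 231 TPM in replicate 1 and 180 TPM in replicate 2, with a log2 ratio of 0.45. Of 13 other translocation and signal peptidase genes, 6 (46.2%) were higher and 3 (23.1%) lower in replicate 1, led by Spcs1, Spcs2 and Ssr4 in level. Of 12 tested genes of ATF6 and IRE1 processing, 6 (50%) were higher and 3 (25%) lower in replicate 1, led in level by Rtraf, Rtcb and Atf6b. Rtcb, the ligase that joins the cut Xbp1 ends, had 57.6 TPM in replicate 1 and 54.0 TPM in replicate 2. Ern2, the epithelial IRE1β, had 0 counts in both libraries, and Creb3l3 and Creb3l4 were below 1 TPM in both, although Creb3l3 was at a mean of 1.68 in posterior mean TPM.

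**Figure D5:**
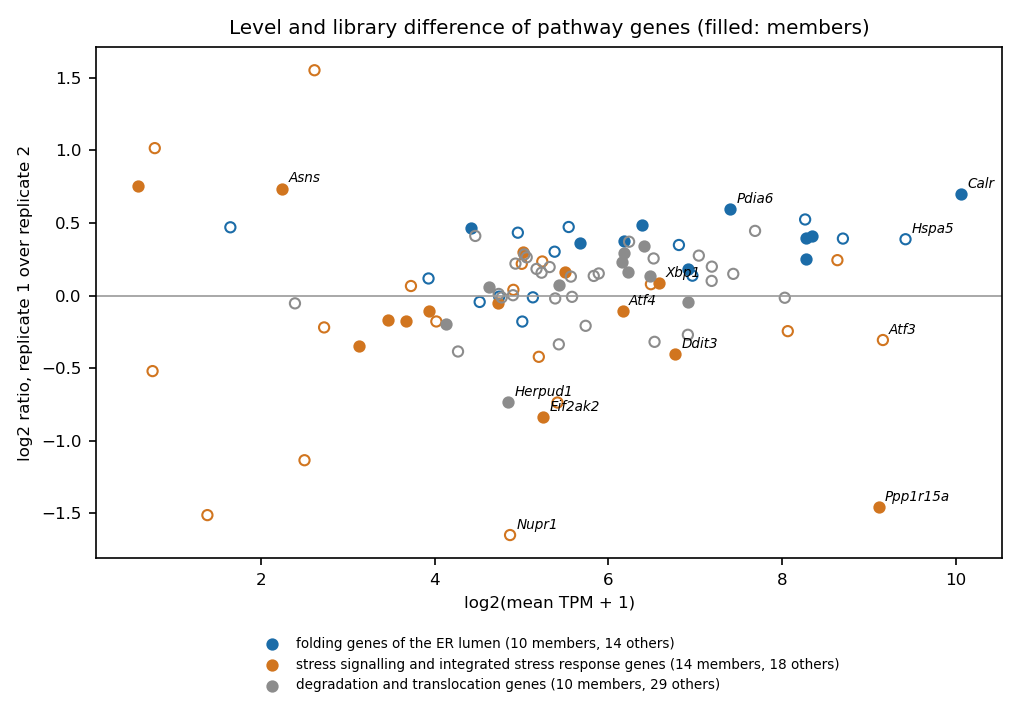
Log2 ratio of replicate 1 over replicate 2 against log2(mean TPM + 1) for tested members (filled) and other pathway genes (open), coloured by role. Folding genes of the ER lumen, counted with the membrane-bound Canx, lie mostly above 0. Stress signalling genes reach from Psat1 near 1.55 to Nupr1 near −1.65, with Ppp1r15a low at a high level.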

How the data were processed

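Polyadenylated RNA of 2 libraries was analysed. Assembly mm10 and annotation M21 were used, per the deposited text files. Which tools were run is not given in the sources used here. Gene tables as deposited gave expected counts, not normalized, and TPM, with a posterior mean TPM as an alternative. Deposited transcript tables gave each transcript's percent of its gene's TPM. Another deposited transcript table, called the second quantification, gave estimated counts and TPM, summed here per gene. Entries naming no gene, 0.0891% and 0.0698% of counts in replicates 1 and 2, were left out.

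Expected counts were rounded, filtered with filterByExpr and scaled by TMM in edgeR 4.0.16 (R 4.3.3). With a single group, edgeR and DESeq2 tests could not be fitted. An exact binomial test compared the libraries, with Benjamini-Hochberg adjustment at 0.05 and Clopper-Pearson 95% intervals (scipy 1.17.1). It was tested on simulated counts that held counting error only, the error the test assumes. That simulation therefore says nothing of other spread between libraries. The biosamples share a donor record, so p-values measure only the difference between these libraries, which may be technical. Since reads carry no molecular identifiers, intervals and the floor of 3 counts (0.0794 and 0.0578 CPM in replicates 1 and 2) cover counting error only. The biological coefficient of variation was 0.25.

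Alternatives were the second quantification, posterior mean and rescaled TPM, DESeq2 1.42.0 size factors, total counts, no filter, other detection limits and pseudocounts, and either library alone. Members, lists and motifs were chosen with earlier results of these data known, and the ER stress element II and TTGCATCA were added after the promoters were read. Values were named for all members, for Hspa5, Hsp90b1, Dnajb9 and Atf3, and by level for the 3 highest genes of each other pathway list, those below 1 TPM, the 2 highest of each marker list and those at 0 counts, and for transcripts where the one ranked next took 20% or more in both libraries. A marker gene that the rule would name is not reported here. Nupr1, Psat1 and the Syvn1 transcripts were singled out after their values were seen.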

Additional observations from a re-analysis of the deposited data

How the results depend on the processing

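The count of 33 detected members was 33 at a limit of 0.5 TPM, 32 at 5 TPM, 33 with either library alone and 33 on protein-coding transcripts only, a setting chosen after seeing the data. The median member was at 60.1 TPM with replicate 1 alone and 56.8 TPM with replicate 2 alone, and the role medians then ranged over 13.5 to 15.2 TPM for sensors, 24.3 to 26.6 for other eIF2α kinases, 87.8 to 95.4 for transcription factors, 163 to 421 for phosphatase subunits, 1.66 to 2.58 for the ATF4 programme, 288 to 329 for lectin chaperones and disulfide isomerases, 41.6 to 42.8 for degradation, 100.6 to 103 for the translocon and 55.6 to 66.2 for stress-induced lumenal proteins. The second quantification gave mostly lower levels, 0.743 to 0.975 of the main values over the 33 members at a mean of 1 TPM or more, and 0.59 to 1.31 of them over the 26 other named genes above 0 TPM, and the cause was not tested. Eif2b2 and Atf6b were lowest, at 32.2 and 31.1 TPM against main means of 54.7 and 52.3 TPM, and Derl3 was at 0.162 TPM against 0.04 TPM. The medians were 48.8 TPM for all members, 12.6 for sensors, 21.6 for kinases, 76.7 for transcription factors, 258 for chaperones and isomerases, 35.99 for degradation, 80.8 for the translocon and 50.8 for lumenal proteins. Rescaling without ribosomal and mitochondrial RNA raised levels by construction, to 72.1, 17.6, 31.3, 113, 381, 52.0, 125 and 75.3 TPM in that order. Posterior mean TPM gave 41.1 for degradation, 99.7 for the translocon and 2.75 for the ATF4 programme against a main value of 2.12, with Trib3 at 0.82 against 0.495, Derl3 at 0.995 against 0.04 and Vldlr at 0.465 against 0.03. Counts of called members were 29 with DESeq2 size factors and without the filter, 27 with total counts and 28 with the second quantification. Total counts moved the median of all tested genes by −0.12 and the member median to 0.045, and reversed the degradation median (−0.014), Xbp1 (−0.032), Spcs2 (−0.016) and Eif2s3x (−0.057). With log2(TPM + 1) and log2(TPM + 0.1), Xbp1 was at −0.011 in both, Spcs2 at −0.038 in both and Eif2s3x at −0.021 in both. Besides the changes given in the report, Sesn2 no longer passed with the second quantification (−0.12, adjusted p = 0.0818, exact binomial test), and under total counts Os9 and Rtcb no longer passed while Spcs1, Eif2b2 and Atf6b did, as lower in replicate 1. No paired analysis was possible because there is a single group. Depth limits Trib3, Chac1 and Derl3, with 26 counts or fewer in each library. No share of counts could be formed for the leading Derl3 transcript.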
